A study of Homo sapiens with 2 samples.

Results

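The genes described here encode SHC1, SHC2, SHC3, SHC4, GRB2, SOS1, SOS2, GAB1, GAB2 and PTPN11, the proteins that link activated receptor tyrosine kinases to Ras. They were chosen by symbol, and all 10 were found among the 46732 genes listed in the annotated gene table. RNA was measured in secondary mammospheres of T47D, an established human breast cancer line of luminal type, grown as floating clusters without attachment. The first library is from cells labelled CIC knockdown and the second from cells labelled control. In each group a primary culture of 7 days was split and followed by a secondary culture of another 7 days. The means of knockdown, the number of clones and the nature of the control construct are not given in the sources used here. There is 1 library per group, so no difference has a replicate check, and no test was made. The design text speaks of duplicates, but whether a deposited column pools them is not stated.

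An activated receptor tyrosine kinase carries phosphorylated tyrosines to which SHC proteins and GRB2 bind. GRB2 brings the exchange factors SOS1 and SOS2 to the membrane, where they load Ras with GTP. The docking proteins GAB1 and GAB2 bind GRB2 and recruit the phosphatase SHP2, the product of PTPN11, which helps keep the Ras-ERK pathway active. CIC (capicua) is a DNA-binding repressor of genes at the output of this pathway, and ERK signalling relieves its repression. It recognises a short octamer motif, and SHC3 and SHC4 have been listed among its candidate targets in human cells.

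The library labelled CIC knockdown held 68420805 estimated read counts and the control library 47099221. CIC itself had 872 counts in the library labelled CIC knockdown and 607 in the control library, a ratio of 0.980 (95% counting interval 0.882 to 1.09). CIC mRNA was thus not reduced where the label says it was, and each library is called by its label throughout. The CIC targets ETV5 and ETV4 were at 4.97 times (4.24 to 5.86) and 4.69 times (3.71 to 6.0) the control level. ETV5 had 1268 counts in the library labelled CIC knockdown and 174 in control, and ETV4 557 and 81 in that order. ETV4 reached 100 counts, the minimum used below, only in the library labelled CIC knockdown, where it is higher. The 8 luminal markers summed to 8110 TPM (a level scaled by transcript length and library) in the library labelled CIC knockdown and to 8019 TPM in control. In the library labelled CIC knockdown, KRT8 at 2910 TPM, KRT18 at 3141 TPM and KRT19 at 1601 TPM made up most of that sum. Ratios of the 8 markers ran from 0.960 for GATA3 to 1.13 for FOXA1. The basal markers KRT5 and KRT14 and the leukocyte markers PTPRC and CD3E were at 0 counts in both libraries. The basal marker TP63 had 8 counts in the library labelled CIC knockdown and 38 in control, ACTA2 had 84 and 65 in that order, and the leukocyte marker ITGAM 8 and 9. Among endothelial markers, PECAM1 had 16 counts in the library labelled CIC knockdown and 2 in control. CDH5 had 7 and 0 in that order, and VWF 40 and 28. The 3 endothelial markers summed to 0.124 TPM in the library labelled CIC knockdown and 0.0740 TPM in control. Ratios are of counts scaled by TMM, library labelled CIC knockdown over control, and their intervals cover counting error only.

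SHC3 and SHC4 were the adaptor genes with the largest differences, and both stood above their control levels. SHC3 was at 2.76 times and SHC4 at 1.61 times the control level. The other 8 genes lay between 0.847 and 1.10 times the control level. GRB2, the most abundant of the genes, was at 0.996 times its control level.

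SHC3 encodes an adaptor best known from neurons, and SHC4 one known from brain, muscle and melanoma. The sequences around their annotated starts are shown first, with those of the 2 SHC1 starts for which RefSeq windows were at hand, because transcripts of these genes differ between the libraries in the results that follow. Each runs 5′ to 3′ on the gene's strand, from 150 bases before the start to 20 bases from it, taken from RefSeq on GRCh38.p14, and capitals mark a match to a CIC octamer.
SHC3: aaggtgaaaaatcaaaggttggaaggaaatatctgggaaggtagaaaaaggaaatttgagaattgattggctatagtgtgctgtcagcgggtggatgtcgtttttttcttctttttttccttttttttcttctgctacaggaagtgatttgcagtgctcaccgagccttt
SHC4: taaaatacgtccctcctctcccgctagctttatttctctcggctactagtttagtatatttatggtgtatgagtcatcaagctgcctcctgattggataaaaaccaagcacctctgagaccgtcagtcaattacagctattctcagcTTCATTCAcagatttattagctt
SHC1 upstream start: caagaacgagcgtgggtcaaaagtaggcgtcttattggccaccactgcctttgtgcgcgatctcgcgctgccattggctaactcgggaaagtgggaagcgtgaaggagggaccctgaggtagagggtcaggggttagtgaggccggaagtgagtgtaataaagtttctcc
SHC1 downstream start: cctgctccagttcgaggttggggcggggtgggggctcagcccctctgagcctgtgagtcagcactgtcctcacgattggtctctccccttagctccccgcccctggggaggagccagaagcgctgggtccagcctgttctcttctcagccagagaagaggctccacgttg

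These stretches lie at chr9:89178799-89178968 for SHC3, chr15:48963900-48964069 for SHC4, chr1:154974357-154974526 for the upstream SHC1 start and chr1:154970728-154970897 for the downstream one, all on the minus strand. The octamers searched were TGAATGAA, TGAATGGA, TCAATGAA and TCAATGGA on both strands, in windows of 250 bases before to 50 bases after each start. Of the 10 genes, 8 had such a window, with 11 windows in all, and GAB1 and PTPN11 had none. A match was found in 1 of the 11 windows, that of SHC4, against 3.77% of all 35116 windows. It is TGAATGAA on the strand opposite to the gene, at chr15:48963915-48963922, with 3 of its bases before the start and 5 from it. TGAATGAA alone is in 1.65% of all windows. The window of SHC3, at the start at 89178818, held none of these octamers. No window was at hand for the SHC3 start at 89182402, which was not searched. A match or its absence describes the sequence only.

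SHC3 (gene 53358) lies on GRCh38 chromosome 9 from 89005771 to 89182402. It had 275 counts in the library labelled CIC knockdown, against 68 in the control library. The ratio was 2.76 (2.11 to 3.65), and the interval was 1.88 to 4.13 from halved counts, in case each mate of a read pair was counted. Its level was 0.428 TPM in the library labelled CIC knockdown and 0.144 TPM in control, the lowest of the 10 genes in both. Its log2 ratio of 1.44 was the 66th highest among the 13722 genes with at least 100 counts in 1 library. SHC3 met that minimum only through the library labelled CIC knockdown, where it is higher.

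Most SHC3 counts belonged to the transcript NM_016848, with 215 counts in the library labelled CIC knockdown and 60 in control. A second transcript, XM_017014809, begins farther upstream and had 53 counts in the library labelled CIC knockdown and 8 in control. Both transcripts thus had more counts in the library labelled CIC knockdown than the difference in depth gives, and NM_016848 alone gave a ratio of 2.44. The genes nearest to SHC3 in log2 ratio over the 2 libraries were STX6, FST, MGP, C19orf48 and SARDH, with differences of at most 0.0115 on the log2 scale. Over 2 libraries this likeness is that of a single ratio. FST and SARDH, like SHC3, met the count minimum only through the library labelled CIC knockdown, where they are higher. FST had 147 counts in the library labelled CIC knockdown and 36 in control, and SARDH 221 and 54 in that order.

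SHC4 (gene 399694, chromosome 15, 48823741 to 48963919) had 2621 counts in the library labelled CIC knockdown and 1113 in the control library. The ratio was 1.61 (1.5 to 1.72), and the interval with halved counts was 1.45 to 1.78. Its level was 7.87 TPM in the library labelled CIC knockdown and 4.78 TPM in control, and its log2 ratio of 0.68 was the 406th highest of 13722. One transcript, NM_203349, held 2618 of the counts in the library labelled CIC knockdown and 1113, the whole, in control, so the difference does not depend on a division among transcripts. EID1, a gene on the opposite strand, lies inside SHC4, and 2 SHC4 exons in the GENCODE annotation overlap its exons. EID1 had 29430 counts in the library labelled CIC knockdown and 18768 in control, a ratio of 1.07 (1.05 to 1.09). The library kit keeps strand, but whether the counting used it is not stated, so reads of EID1 within the SHC4 count cannot be told apart.

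Among markers of neurons and glia, cells in which SHC3 is known, some stood above SHC3 in level. MAP2 had 954 counts in the library labelled CIC knockdown and 688 in control, and GFAP was at 0 in both. SNAP25 had 74 and 72 counts in that order, and RBFOX3 16 and 6. The ratio of SNAP25 was 0.701, with an interval below 1, and that of RBFOX3 was 1.82, with an interval that covers 1. MAP2 was at 2.28 TPM in the library labelled CIC knockdown and 2.37 TPM in control, and SNAP25 at 0.522 and 0.705 TPM. SHC3 was at 0.428 and 0.144 TPM in that order. The 4 markers summed to 2.88 TPM and 3.12 TPM in the same order. Among fibroblast markers, COL1A2 and PDGFRB were at 0 in both libraries. COL1A1 had 168 counts in the library labelled CIC knockdown and 58 in control, and the 4 fibroblast markers summed to 0.475 TPM in the library labelled CIC knockdown and 0.269 TPM in control. The part of such cells in the SHC3 result was not tested. In bulk RNA a change in the number of cells and a change in RNA per cell cannot be told apart.

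SHC1 (gene 6464, chromosome 1, 154962298 to 154974492), the SHC gene expressed in most tissues, had 3889 counts in the library labelled CIC knockdown and 2412 in the control library. Its ratio was 1.10 (1.05 to 1.16), and its level 19.0 TPM in the library labelled CIC knockdown and 17.1 TPM in control. Listed pseudogenes of the adaptor genes as a whole, 2 in number, had 0 counts in both libraries. LOC101928120, which overlaps SHC1, had 196 counts in the library labelled CIC knockdown and 118 in control. SHC2 (gene 25759, chromosome 19, 416583 to 461011), another adaptor known from neurons, had 451 counts in the library labelled CIC knockdown and 363 in control. The SHC2 ratio was 0.847 (0.736 to 0.976), and with halved counts the interval, 0.694 to 1.04, crossed a ratio of 1. Its main transcript, NM_012435, had 364 counts in the library labelled CIC knockdown and 363 in control, and XM_011527895 had 87 and 0 in that order. By TPM, SHC4 made up 26.2% of the summed SHC level in the library labelled CIC knockdown and 19.0% in control. SHC3 made up 1.42% in the library labelled CIC knockdown and 0.574% in control. SHC1 remained the largest part, at 63.3% in the library labelled CIC knockdown and 67.9% in control.

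**Figure D1:**
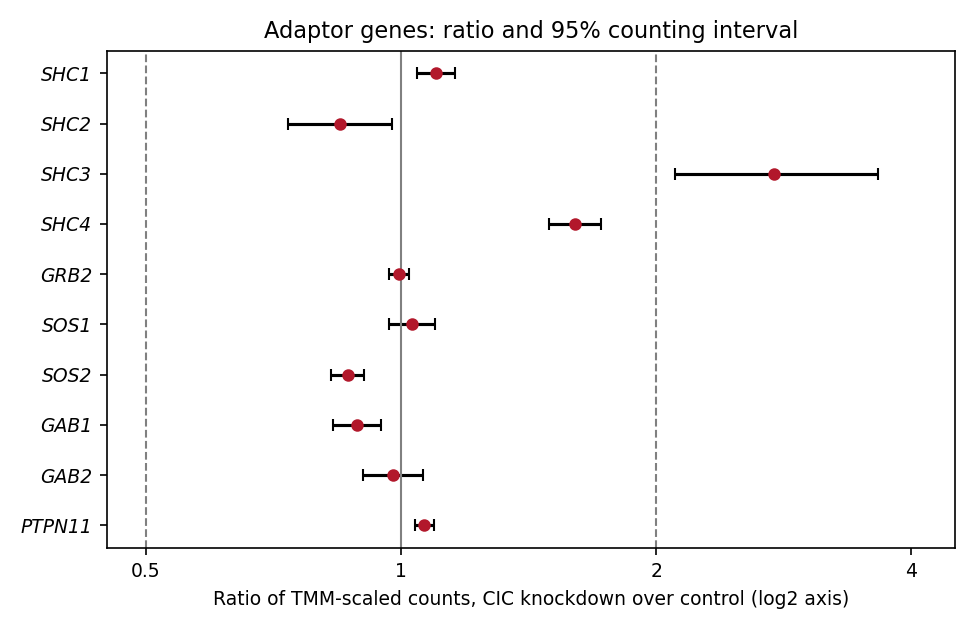
Ratio of TMM-scaled counts, library labelled CIC knockdown over control, for each of the 10 adaptor genes on a log2 axis. Points are ratios, bars are 95% counting intervals, the solid line marks equal levels and the dashed lines 2-fold; SHC3 lies at 2.76, beyond the 2-fold line, and SHC4 at 1.61, while the other genes lie near 1.

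The small difference in SHC1 was uneven among its annotated starts, which were grouped after the values were seen. It has 17 annotated transcripts. Of these, the 8 with downstream starts, between 154970575 and 154970747, had 653 counts in the library labelled CIC knockdown and 156 in control. Their ratio was 2.86 (2.39 to 3.42), and 7 of the 8 had more scaled counts in the library labelled CIC knockdown. Of the 8, the 2 that begin at 154970747, the start of the window shown, had 69 counts in the library labelled CIC knockdown and 13 in control, and the 6 that begin at 154970575 had 584 and 143 in that order. The 7 that begin upstream, between 154974376 and 154974492, had 3123 counts in the library labelled CIC knockdown and 2117 in control, a ratio of 1.01 (0.952 to 1.06). The 2 transcripts that begin between them had 113 counts in the library labelled CIC knockdown and 139 in control, a ratio of 0.555 (0.429 to 0.716).

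The downstream starts therefore held 16.8% of SHC1 counts in the library labelled CIC knockdown and 6.47% in control. SHC1 is known to give proteins of several lengths, the longest, p66Shc, from a promoter of its own. The files do not say which protein each transcript encodes. In the transcript table that adds assembled models, the downstream transcripts had 722 counts in the library labelled CIC knockdown and 232 in control, a ratio of 2.14 (1.85 to 2.50). In that table the upstream ratio was 1.08 (1.02 to 1.15), with an interval above 1, and the middle ratio was 0.353 (0.282 to 0.44). The upstream group there includes an assembled SHC1 variant, with 0 counts in the library labelled CIC knockdown and 945 in control. The variant holds 945 of the 1937 upstream counts in control, beside 3041 upstream counts in the library labelled CIC knockdown. The upstream ratio in that table, and its contrast with the downstream ratio, thus depends on the reads given to that variant. The transcripts share most of their exons, and the counting intervals leave out the error of dividing reads among them.

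**Figure D2:**
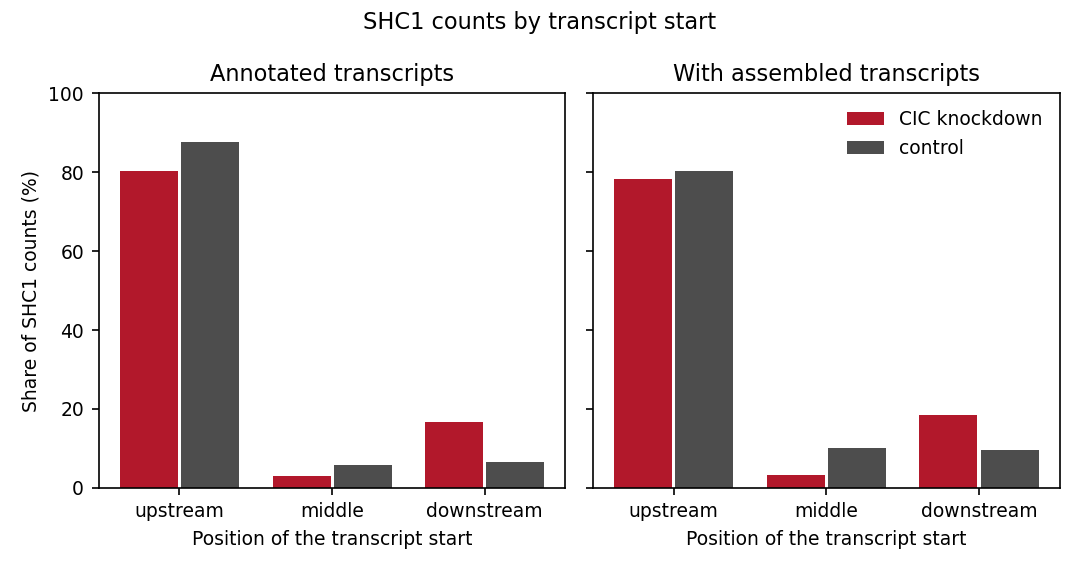
Share of SHC1 counts in percent held by transcripts that begin at the upstream, middle and downstream starts, for the library labelled CIC knockdown and the control library, in the table of annotated transcripts and in the table with assembled ones. The downstream share is 16.8% in the library labelled CIC knockdown and 6.47% in control in the first table, and 18.6% and 9.62% in the same order in the second.

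The adaptor that binds SHC, GRB2 (gene 2885, chromosome 17, 75318076 to 75405709), had 13292 counts in the library labelled CIC knockdown and 9105 in the control library, a ratio of 0.996 (0.969 to 1.02). Of its counts, 99.3% in each library belonged to the transcript NM_002086. Its level was 61.3 TPM in the library labelled CIC knockdown and 60.1 TPM in control, the highest of the 10 genes in both. The interval of its ratio covers equal levels.

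The Ras exchange factors differed little. SOS2 (gene 6655, chromosome 14, 50117130 to 50231578) had 4262 counts in the library labelled CIC knockdown and 3359 in control, a ratio of 0.865 (0.827 to 0.906). It has a single annotated transcript, so no division of reads enters that value. SOS1 (gene 6654, chromosome 2, 38981549 to 39124959) had 2527 counts in the library labelled CIC knockdown and 1671 in control, a ratio of 1.03 (0.969 to 1.10). Its transcript NM_005633 held 57.5% of counts in the library labelled CIC knockdown and 99.4% in control, and XM_005264515 had 1074 counts in the library labelled CIC knockdown and 0 in control. With assembled transcripts added, SOS1 had 2698 counts in the library labelled CIC knockdown and 2091 in control, and the ratio was 0.889 (0.839 to 0.941). An assembled variant of 8900 bases took 83 of those counts in the library labelled CIC knockdown and 1496 in control. The direction of SOS1 thus depended on which transcripts were counted.

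Among the docking proteins, GAB1 (gene 2549, chromosome 4, 143336876 to 143474565) had 2136 counts in the library labelled CIC knockdown and 1640 in control. Its ratio was 0.888 (0.833 to 0.948), lower in the library labelled CIC knockdown. GAB2 (gene 9846, chromosome 11, 78215290 to 78417820) had 1459 counts in the library labelled CIC knockdown and 1016 in control, a ratio of 0.979 (0.903 to 1.06). USP35, which overlaps GAB2 on the opposite strand, had 1096 counts in the library labelled CIC knockdown and 764 in control, a ratio of 0.978 (0.891 to 1.08). In the GENCODE annotation, 0 GAB2 exons overlap USP35 exons. PTPN11 (gene 5781, chromosome 12, 112418898 to 112509918) had 15199 counts in the library labelled CIC knockdown and 9730 in control, and a ratio of 1.07 (1.04 to 1.09). Its level was 53.2 TPM in the library labelled CIC knockdown and 46.7 TPM in control. Of its transcripts, XM_011538613 held 70.6% of counts in the library labelled CIC knockdown and 76.9% in control, and the shorter NM_080601 held 17.9% and 15.4% in that order.

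Within GAB1 and GAB2, as in SOS1, the deposited division among transcripts differed far more than the gene totals. The 2 GAB1 transcripts that begin at 143336876 had 1761 counts in the library labelled CIC knockdown and 542 in control. The 8 that begin farther downstream, from 143342812 to 143402890, had 375 counts in the library labelled CIC knockdown and 1098 in control. The first start thus held 82.4% of GAB1 counts in the library labelled CIC knockdown and 33.0% in control. In GAB2, XM_006718753 held 1401 counts in the library labelled CIC knockdown and 2 in control, whereas NM_080491 held 56 in the library labelled CIC knockdown and 991 in control. Those transcripts begin 41 bases apart and differ by 44 bases in length. The GAB2 gene total stayed within counting error, and the cause of the exchange was not tested.

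Levels per unit of length ran in nearly the same order in both libraries in the annotated gene table. GRB2, PTPN11, SHC1, SOS2 and SHC4 were the 5 highest in that order in each. In the library labelled CIC knockdown they were followed by SOS1 at 4.87 TPM, GAB1 at 3.92 TPM, GAB2 at 3.58 TPM, SHC2 at 2.75 TPM and SHC3. In the control library SHC4 at 4.78 TPM, GAB1 at 4.40 TPM and SOS1 at 4.34 TPM were neighbours whose counting intervals overlapped, as did those of GAB2 at 3.58 TPM and SHC2 at 3.14 TPM. In the library labelled CIC knockdown, GAB1 and GAB2 were the neighbours that overlapped, and SHC4 stood clear of SOS1. SOS1 and GAB1 changed places between the libraries. With assembled transcripts added, SOS1 was at 7.91 TPM in the library labelled CIC knockdown and 8.69 TPM in control. It then lay above SHC4, at 7.70 TPM in the library labelled CIC knockdown and 4.72 TPM in control, and above GAB1 in both, so these places depend on the table. In the library labelled CIC knockdown these SOS1 and SHC4 levels are close, and counting intervals of levels were not computed with assembled transcripts.

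**Figure D3:**
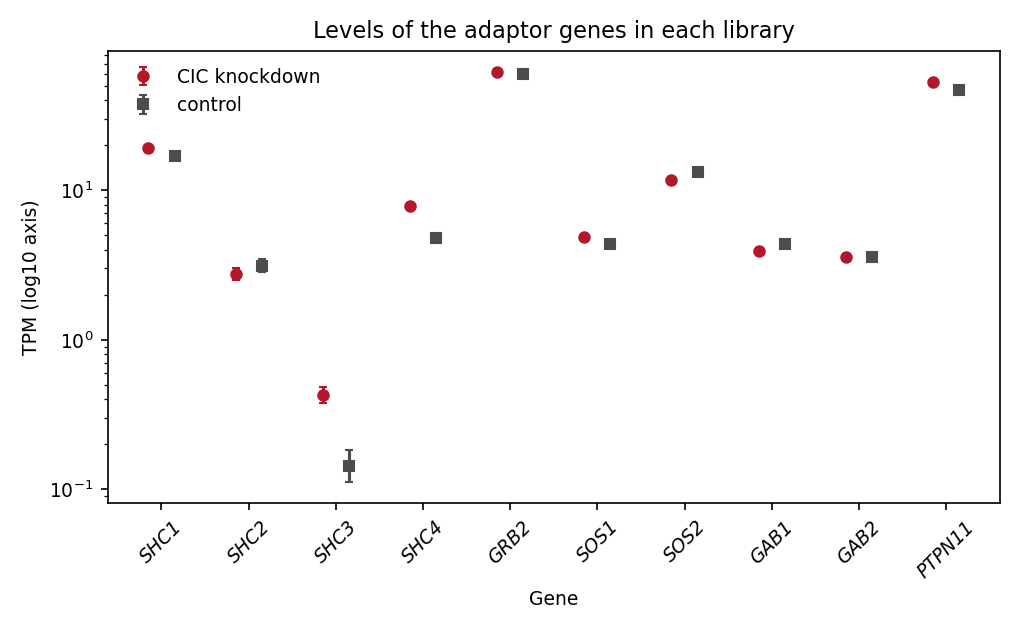
Level of each adaptor gene in TPM on a log10 axis, in the library labelled CIC knockdown (circles) and the control library (squares), with bars for 95% counting intervals scaled to TPM. Levels span from SHC3 at 0.428 and 0.144 TPM to GRB2 at 61.3 and 60.1 TPM, each in the order of the library labelled CIC knockdown and control.

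All 10 genes had at least 100 counts in at least 1 library. Of these, 1 was at least 2-fold higher in the library labelled CIC knockdown with an interval above 1, SHC3, against 1.22% of the 13722 genes, and 0 were at least 2-fold lower, against 0.977%. That 1 gene, SHC3, met the count minimum only through the library labelled CIC knockdown, where it is higher. At 1.5-fold, a size chosen after the values were seen, 2 were higher, against 4.31%, and 0 lower, against 3.46%. The counting interval lay above 1 for 4 genes, SHC1, SHC3, SHC4 and PTPN11, against 33.8% of all genes. It lay below 1 for 3, SHC2, SOS2 and GAB1, against 27.3%. The counts by interval are near these backgrounds. The median log2 ratio of the 10 genes was 0.02, and that of all 13722 genes was also 0.02.

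Other docking proteins and adaptors had more intervals above 1 than below. Of 41 genes in that list, 25 had at least 100 counts in 1 library. Their median log2 ratio was 0.16, beside 0.02 for all genes, with 13 intervals above 1, against 33.8% of all genes, and 3 below, against 27.3%. None reached 2-fold, and 3 were at least 1.5-fold higher, against 4.31% of all genes. With no count minimum the median was 0.08. SH2B2, an adaptor of the insulin receptor, had 343 counts in the library labelled CIC knockdown and 139 in control, a ratio of 1.68 (1.38 to 2.07). IRS2, an insulin receptor substrate, had 532 counts in the library labelled CIC knockdown and 224 in control, a ratio of 1.62 (1.38 to 1.90).

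SHF, an SH2 adaptor, was at 1.61 times the control level, DOK4, a docking protein, at 1.48 times, and SHCBP1, a protein that binds the SHC1 SH2 domain, at 1.45 times. DOK3 had a ratio of 1.36 (0.978 to 1.92), an interval that covers equal levels. It met the count minimum only through the library labelled CIC knockdown, with 110 counts against 55 in control. Of 6 other Ras exchange factors, RASGRP1 alone had at least 100 counts in 1 library, with 1069 counts in the library labelled CIC knockdown and 661 in control and a log2 ratio of 0.14.

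Effectors and brakes of the same receptors also had more intervals above 1 than below, with genes in both directions. Of 20 such genes, 18 had at least 100 counts in 1 library, with 11 intervals above 1, against 33.8% of all genes, and 3 below, against 27.3%. Their median log2 ratio was 0.14, beside 0.02 for all genes. VAV1, a signalling protein with an SH2 domain, was at 1.63 times the control level (1.24 to 2.16), and its relative VAV2 at 0.748 times (0.706 to 0.792). VAV1 met the count minimum only through the library labelled CIC knockdown, where it is higher, with 182 counts against 76 in control. CBL, a ubiquitin ligase that removes active receptors, was at 1.48 times (1.36 to 1.62). The PI3-kinase subunit gene PIK3R2 was at 1.33 times and the Src-inhibiting kinase gene CSK at 1.26 times the control level. ERRFI1, a feedback inhibitor of EGFR, had 5215 counts in the library labelled CIC knockdown and 4448 in control, a ratio of 0.800 (0.768 to 0.833).

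**Figure D4:**
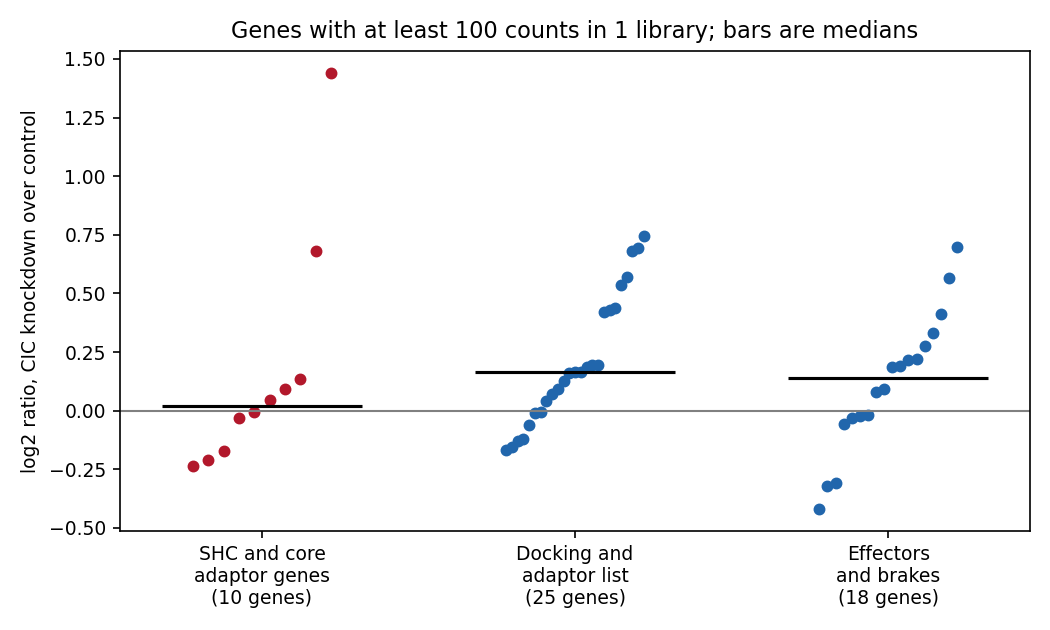
Log2 ratio, library labelled CIC knockdown over control, of genes with at least 100 counts in 1 library: the 10 SHC and core adaptor genes, 25 other docking and adaptor genes, and 18 effectors and brakes. Each point is a gene and each bar a median; SHC3 at 1.44 is the highest point, SHC4 at 0.68 the next of its group, and the medians are 0.02, 0.16 and 0.14.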

How the data were processed

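RNA was measured in 1 library labelled CIC knockdown and 1 labelled control. Per the submitters' processing notes, Trimmomatic, HISAT2 and StringTie were used, with builds hg38 and GRCh38 and no versions named. Per the file headers, the authors deposited read counts with FPKM and TPM values for each gene and transcript. The deposited counts are estimated counts made from coverage: in each library 100% of transcripts with at most 5000 counts lay less than 1 above FPKM times length times a constant, within 0.02. They were whole numbers as deposited and were not rounded again. The deposited FPKM and TPM values were used as alternatives.

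Counts were scaled by TMM (edgeR 4.0.16, R 4.3.3). Ratios carry exact Clopper-Pearson 95% intervals conditional on the summed count, which hold no variation from culture or library preparation. Log2 ratios used a prior count of 2, and genes needed 100 counts in 1 library. The interval code was checked on simulated counts. All 10 genes are named; from each wider list of docking proteins and of effectors, the 6 largest absolute log2 ratios; from the exchange factors, all above the minimum; SHC3's 5 nearest ratios; and genes overlapping a member. The genes and lists were chosen with earlier results of these data known. Alternatives were other scaling (total counts, DESeq2 1.42.0 size factors, protein-coding totals), prior, minimum, unit and table, and halved counts. Strands came from GENCODE.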

Additional observations from a re-analysis of the deposited data

How the results depend on the processing

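With 1 library per group, no library could be left out, and the spread between cultures is unknown. No paired analysis was possible because each group has 1 library. Over 10 alternatives, the log2 ratio of SHC3 ran from 1.07 in deposited FPKM and 1.11 in TPM, both with a pseudocount of 0.1, which shrinks low levels, to 1.46 and that of SHC4 from 0.68 to 0.71. Of 100 values for single genes, 95 moved by less than their counting interval and 0 called values changed sign. The others were SOS1, at 0.16 in TPM, 0.14 in FPKM and -0.17 with assembled transcripts against 0.04, and PTPN11, at 0.19 in TPM and 0.17 in FPKM against 0.09; the cause was not tested. The docking and adaptor median of 0.16 was 0.08 with no count minimum. Genes at least 2-fold higher and lower, 168 and 134, numbered 1140 and 1226 with no count minimum and 298 and 234 with a minimum of 50, since more genes were counted, and the lower ones 232 with assembled transcripts. The median share of counts exchanged among a gene's transcripts was 8.86% over transcripts with at least 10% of the gene and 13.8% over those with at least 1 count. The downstream SHC1 ratio of 2.86 was 2.14 with assembled transcripts, an alternative added after the data were seen.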
